A study of Mus musculus with 4 samples.

Results

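The genes described here are those of the Wnt signalling pathway that encode its ligands, receptors, antagonists and core intracellular components. They were taken by symbol from the mouse RefSeq protein-coding genes: every Wnt, Fzd, Sfrp and Dkk gene whose stem is followed by a number, together with Lrp5, Lrp6, Axin1, Axin2, Ctnnb1, Tcf7, Tcf7l1, Tcf7l2 and Lef1. This gave 46 genes of the 21774 protein-coding genes placed on the assembled chromosomes, namely 19 ligand genes, 12 receptor genes, 8 genes for secreted antagonists and 7 genes for intracellular components. Binding of linker histones had been mapped by chromatin immunoprecipitation and sequencing (ChIP-seq) in H1foo-GFP overexpressing mouse embryonic stem cells (strain 129S4/SvJae), H1foo being the linker histone of the oocyte and GFP a fluorescent tag. There were 2 libraries made with an in-house rabbit polyclonal antibody against H1foo and 2 made with AE4, a mouse monoclonal antibody for somatic H1. All 4 libraries came from H1foo-overexpressing cells, so cells without the transgene are not part of the comparison. The sources used here do not say whether AE4 also recognises H1foo, or whether libraries came from separate cultures.

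Wnt ligands are secreted lipid-modified glycoproteins that bind a Frizzled (Fzd) receptor and its co-receptor Lrp5 or Lrp6. In the absence of ligand, Axin holds β-catenin (Ctnnb1) in a complex that marks it for degradation. After receptor binding β-catenin accumulates, enters the nucleus and acts with the DNA-binding factors Tcf7, Tcf7l1, Tcf7l2 and Lef1. Secreted Sfrp proteins sequester ligands, and Dkk proteins of the Dkk1 type block the Lrp co-receptors. In mouse embryonic stem cells Tcf7l1 restrains the pluripotency programme, and activation of the pathway favours self-renewal. Linker histone H1 binds nucleosomes and the DNA that enters and leaves them.

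The deposited data are 1 peak list per antibody, in mm10 coordinates, with 97795 H1foo peaks and 47449 AE4 peaks on the assembled chromosomes. A gene was counted as having a peak when at least 1 bp of a peak lay inside it or within 2 kb of either end. Each peak carries a score written by the authors' peak caller, at least 50 in both lists, which was used only to rank peaks within a list. Single libraries cannot be told apart in the lists, which leaves no replicate error and no test between antibodies or between gene groups. All counts below describe these lists. Read depth is unknown and the H1foo list is longer, and a gene without a peak may still be bound.

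Start sites are shown first because peaks rarely reached them. Windows of 300 bases around annotated start sites (250 before to 50 after, RefSeq sequence on GRCm38.p6) were at hand for 31 of the 46 genes, 40 windows in all. An H1foo peak reached into 2 of the 40 windows (5.0%) and an AE4 peak into 0. Over all 21263 such windows of protein-coding genes the shares were 13.5% for H1foo and 2.36% for AE4. The windows touched were a start of Tcf7, which encodes a DNA-binding partner of β-catenin, and the start of Fzd5, a Wnt receptor. They are shown 5′ to 3′ with the bases under the H1foo peak in capitals, 76 bases at Tcf7 and 8 bases at the upstream edge at Fzd5. The other start of Tcf7, which no peak touched, follows for comparison.
Tcf7, chr11:52282546-52282845, minus strand: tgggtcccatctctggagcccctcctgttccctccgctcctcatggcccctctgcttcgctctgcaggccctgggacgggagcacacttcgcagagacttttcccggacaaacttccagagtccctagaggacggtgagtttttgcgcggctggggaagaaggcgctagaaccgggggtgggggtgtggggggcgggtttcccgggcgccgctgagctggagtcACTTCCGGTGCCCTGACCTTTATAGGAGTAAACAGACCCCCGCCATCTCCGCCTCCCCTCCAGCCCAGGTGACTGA
Tcf7, chr11:52282965-52283264, minus strand: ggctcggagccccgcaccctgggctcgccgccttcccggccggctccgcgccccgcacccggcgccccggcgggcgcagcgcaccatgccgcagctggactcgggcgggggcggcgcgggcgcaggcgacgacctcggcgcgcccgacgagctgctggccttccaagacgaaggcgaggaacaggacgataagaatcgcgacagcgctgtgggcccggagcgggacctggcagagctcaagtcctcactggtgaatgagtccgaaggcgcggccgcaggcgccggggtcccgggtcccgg
Fzd5, chr1:64737701-64738000, minus strand: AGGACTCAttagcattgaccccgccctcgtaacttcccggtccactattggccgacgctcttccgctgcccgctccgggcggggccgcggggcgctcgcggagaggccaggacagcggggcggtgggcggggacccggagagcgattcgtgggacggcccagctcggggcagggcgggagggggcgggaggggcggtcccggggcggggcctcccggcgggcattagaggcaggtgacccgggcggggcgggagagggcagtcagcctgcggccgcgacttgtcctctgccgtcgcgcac

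The untouched Tcf7 window held 45 CpG dinucleotides, against 17 in the Tcf7 window that the H1foo peak entered. The Fzd5 window, also entered, held 38. The start windows of the Wnt genes were rich in CpG, with a median of 26.5 CpG and 68.7% G+C, against 13.0 CpG and 56.3% over all windows. The richest was that of Wnt9a, a ligand gene, with 58 CpG (capitals), and the nearest H1foo and AE4 peaks lay 2581 bp and 8368 bp from its start.
Wnt9a, chr11:59306680-59306979, plus strand: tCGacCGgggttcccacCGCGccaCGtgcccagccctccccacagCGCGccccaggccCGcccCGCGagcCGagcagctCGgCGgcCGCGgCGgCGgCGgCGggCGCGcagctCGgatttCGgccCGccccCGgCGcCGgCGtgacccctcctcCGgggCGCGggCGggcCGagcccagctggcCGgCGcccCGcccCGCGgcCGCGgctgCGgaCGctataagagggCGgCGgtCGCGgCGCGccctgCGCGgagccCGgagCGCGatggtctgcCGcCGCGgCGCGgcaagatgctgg

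Among windows with 26 or more CpG, 1 of 21 Wnt windows (4.76%) had an H1foo peak and none had an AE4 peak. Over all protein-coding genes the shares in this CpG class were 7.89% and 0.187%. In the class of 6 to 15 CpG, 0 of 8 Wnt windows had an H1foo peak, against 21.2% of all windows. In that of 16 to 25 CpG it was 1 of 9 (11.1%), against 15.2%, and in that of 0 to 5 CpG 0 of 2, against 10.8%. In 7 further windows (17.5%) an H1foo peak lay within 500 bp of the start without touching the 300 bases, against 6.61% of all windows. Its nearer edge lay 221 bp from the start at Fzd10, 278 bp from a start of Lef1 and 291 bp at Fzd9. The distance was 347 bp from the second annotated start of Wnt11 and 353 bp at Sfrp5. It was 393 bp from a start of Tcf7 and 429 bp from a start of Wnt5b. Some windows of the same gene overlap, as at Lef1 and Ctnnb1, so the windows are not all separate. The nearest AE4 peaks were 1449 bp from a Tcf7 start and 1488 bp from the Fzd9 start. These distances were not set beside those of all windows.

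The heptamer CTTTGAT, a form of the Tcf/Lef binding motif, was searched on both strands (CTTTGAT and ATCAAAG; it does not overlap itself). It occurred in 2 of the 40 Wnt windows (5.0%) and in 3.22% of all windows. They were a start of Wnt11 and a start of Wnt5b, ligands that act largely without β-catenin, shown with the heptamer in capitals. Neither window had a peak. A match is a description of the letters only.
Wnt11, chr7:98834862-98835161, plus strand: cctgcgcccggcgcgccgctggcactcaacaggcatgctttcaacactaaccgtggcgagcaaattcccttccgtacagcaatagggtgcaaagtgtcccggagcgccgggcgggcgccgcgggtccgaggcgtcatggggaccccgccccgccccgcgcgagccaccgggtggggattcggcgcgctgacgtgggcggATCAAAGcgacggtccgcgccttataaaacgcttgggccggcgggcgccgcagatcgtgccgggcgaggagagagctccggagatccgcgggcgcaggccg
Wnt5b, chr6:119449337-119449636, minus strand: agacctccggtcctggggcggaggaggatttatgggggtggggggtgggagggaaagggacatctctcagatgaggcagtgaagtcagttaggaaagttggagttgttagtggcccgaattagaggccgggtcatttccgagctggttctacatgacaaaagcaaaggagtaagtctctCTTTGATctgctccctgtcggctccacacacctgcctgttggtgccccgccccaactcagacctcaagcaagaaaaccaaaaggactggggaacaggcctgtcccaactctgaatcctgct

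Counted over whole genes, H1foo peaks were common at the Wnt genes and AE4 peaks less so. Of the 46 genes, 36 (78.3%) had an H1foo peak and 24 (52.2%) an AE4 peak. The background over all protein-coding genes was 59.4% and 46.1%. Peaks were more frequent in longer genes, and the Wnt genes were therefore set beside all other genes of the same tertile of gene length and the same decile of gene density (protein-coding genes within 1 Mb). Those classes had shares of 54.9% for H1foo and 42.8% for AE4, so that the Wnt genes stood 23.3 points higher for H1foo and 9.33 points higher for AE4. With the classes built from the number of peaks in the surrounding 1 Mb instead of gene density, a setting chosen after the data were seen, the class shares were 67.1% and 51.6%. The margins were then 11.2 points for H1foo and 0.595 points for AE4. With scores of 100 or more the AE4 margin turned to -3.34 points. Neighbouring Wnt genes are not independent, and no test of these margins was made.

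All 24 Wnt genes with an AE4 peak also had an H1foo peak, as did 91.6% of all genes with an AE4 peak. Of the 46 Wnt genes, 12 had H1foo alone, 0 had AE4 alone and 10 had neither. The shares at the Wnt genes were 52.2% for both, 26.1% for H1foo alone, 0 for AE4 alone and 21.7% for neither, against 42.2%, 17.2%, 3.88% and 36.7% over all genes. Cutting the H1foo list to the 47449 highest-scoring peaks, the length of the AE4 list, left H1foo peaks at 67.4% of the Wnt genes, against 43.8% of all genes. It gave 11 Wnt genes with H1foo alone (23.9%) and 4 with AE4 alone (8.7%), against 8.56% and 10.9% of all genes.

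**Figure D1:**
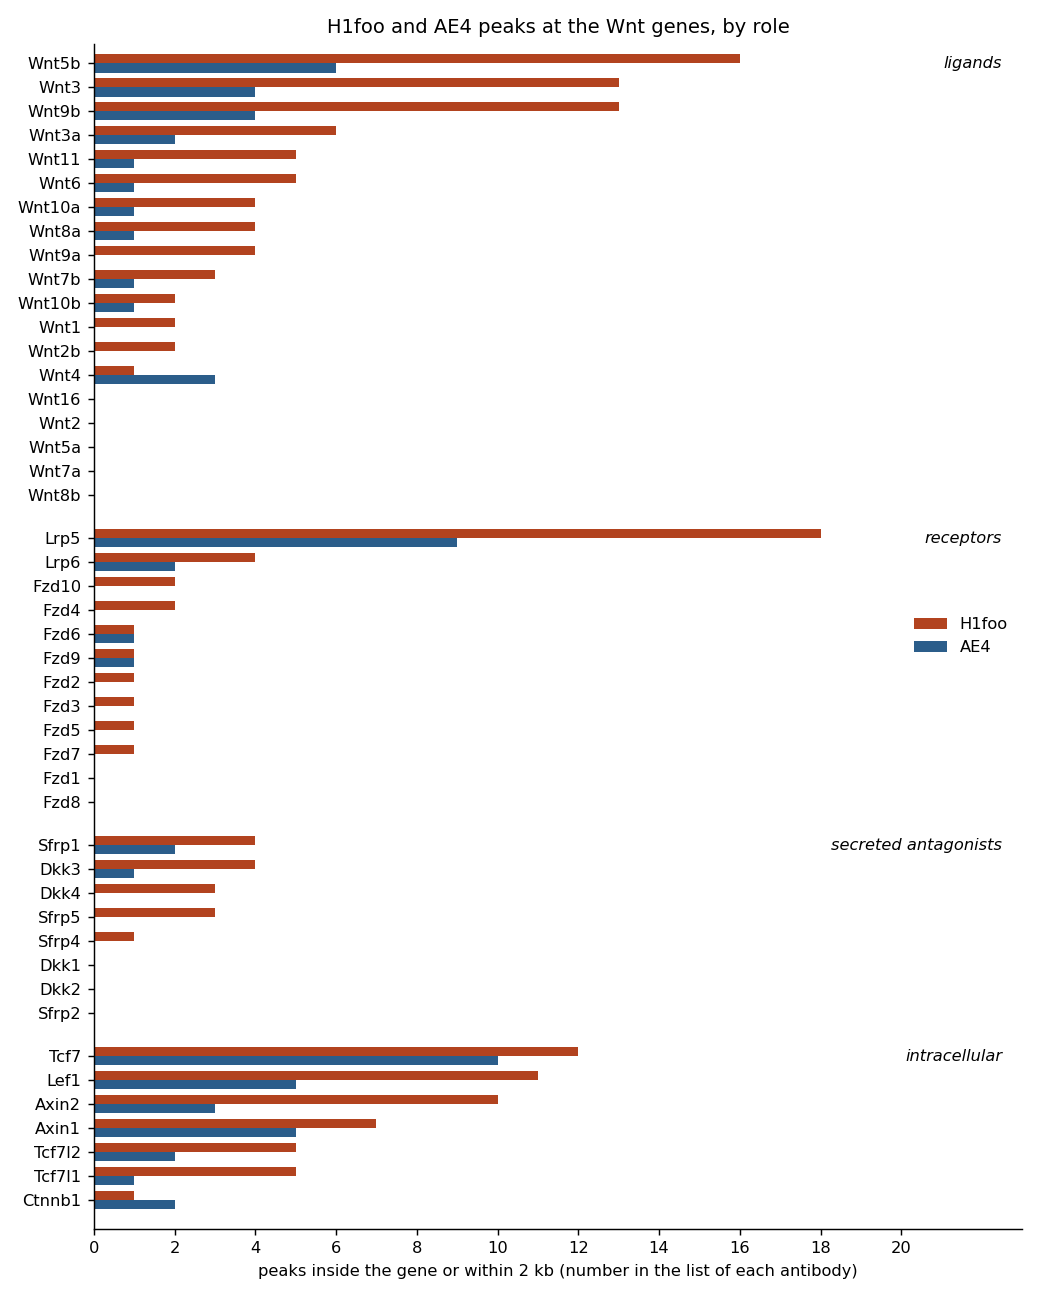
Number of H1foo peaks (upper bar) and AE4 peaks (lower bar) inside each of the 46 Wnt genes or within 2 kb, grouped by role. Lrp5 has the most H1foo peaks, 18, and Tcf7 the most AE4 peaks, 10, while 10 genes have no bar.

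Roles differed in which list reached them. The 7 intracellular genes had peaks of both antibodies in every case, where their length and density classes had 66.3% for H1foo and 57.0% for AE4. Of the 12 receptor genes, 10 (83.3%) had an H1foo peak and 4 (33.3%) an AE4 peak, and their classes had 42.8% and 31.9%. Of the 19 ligand genes, 14 (73.7%) and 11 (57.9%) did, and their classes had 64.3% and 50%. Of the 8 antagonist genes, 5 (62.5%) had an H1foo peak and 2 (25%) an AE4 peak, against 41.0% and 29.9% in their classes. With the 2 kb window and all peaks, the H1foo margin over the class was widest at receptors, 40.5 points. The AE4 margin was widest at the intracellular genes, 43.0 points, and was 1.45 points at receptors. The H1foo ranking of the roles changed with the setting. With the gene body alone 8 receptor genes had an H1foo peak, a margin of 27.7 points, against 35.4 points at the intracellular genes. With lists of equal length the H1foo margins were 28.4 points at receptors, 40.9 at the intracellular genes and 38.1 at antagonists. With classes built from surrounding peaks, the H1foo margins were 29.3 points at receptors, 13.8 at the intracellular genes, 11.0 at antagonists and -1.13 at ligands. The class share for H1foo at the intracellular genes was then 86.2%. The AE4 margins were 28.6 points at the intracellular genes, 1.28 at ligands, -7 at receptors and -14.2 at antagonists. The role counts depended on the score. With scores of 100 or more, an H1foo peak was left at 3 receptor genes, where the margin fell to 3.79 points, and an AE4 peak at 0 receptor genes and at 2 intracellular genes, where the margin was 12.9 points.

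**Figure D2:**
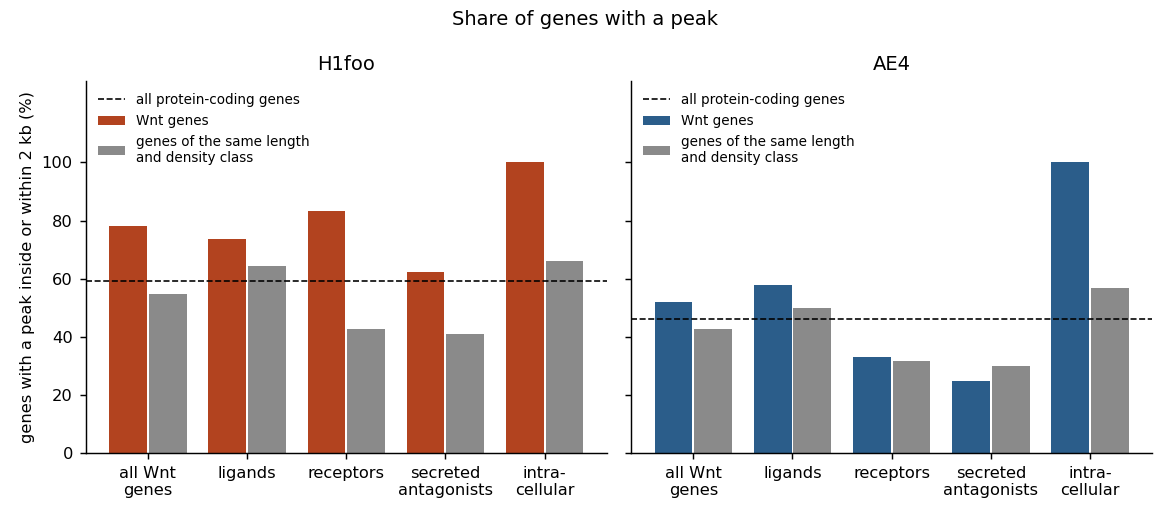
Percent of Wnt genes with an H1foo peak (left panel) or an AE4 peak (right panel), overall and by role, beside genes of the same length and density class (grey); the dashed line is the share of all protein-coding genes. Receptors reach 83.3% for H1foo against 42.8% in their class, and 33.3% for AE4 against 31.9%.

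Among short genes the lists differed most. Of the 16 Wnt genes under 10 kb, 12 (75%) had an H1foo peak and 3 (18.8%) an AE4 peak, whereas all 7856 genes under 10 kb had 43.2% and 27.3%. H1foo alone was found at 9 of these 16 (56.2%), against 17.8% of all genes of that length. The length groups were not matched for gene density. From 10 to 30 kb the Wnt genes were close to or below all genes, with 66.7% for H1foo and 44.4% for AE4 (6 and 4 of 9), against 65.4% and 50.5%. From 30 to 60 kb the lists reached the same number of Wnt genes, 10 of 12 (83.3%) each, and all genes of that length had 69.8% and 56.8%. At 60 kb or more, 8 and 7 of 9 Wnt genes (88.9% and 77.8%) had a peak, against 72.2% and 66.2%. The 12 genes with H1foo alone had a median length of 5.28 kb, while the 24 with both had 40.5 kb and the 10 with neither 15.6 kb.

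**Figure D3:**
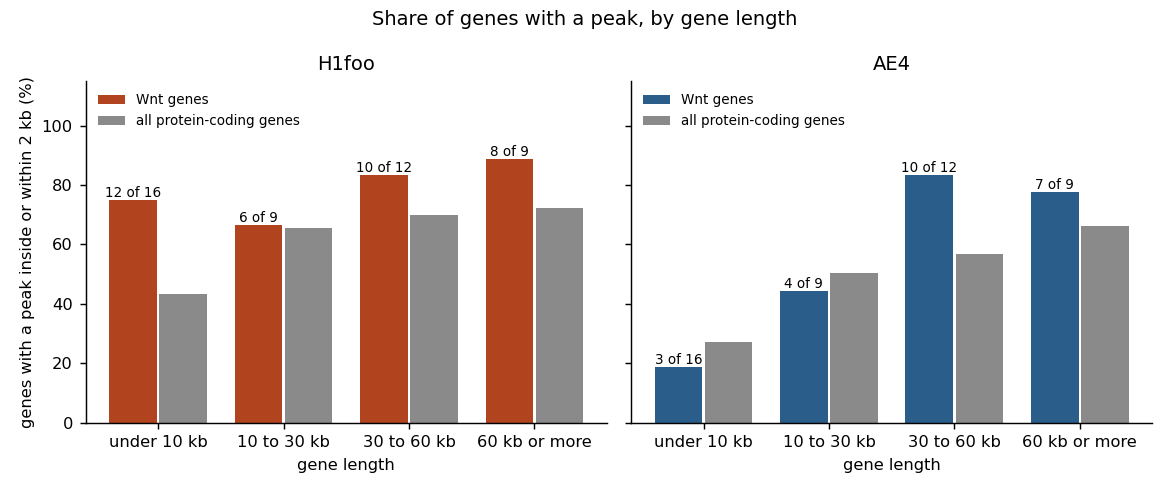
Percent of Wnt genes with an H1foo peak (left panel) or an AE4 peak (right panel) by gene length, beside all protein-coding genes of that length (grey). Under 10 kb, 12 of 16 Wnt genes have an H1foo peak and 3 of 16 an AE4 peak.

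The Wnt genes held a median of 2.0 H1foo peaks and 1.0 AE4 peak, against 1.0 and 0.0 over all genes. Pooled over genes and windows, this was 9.05 H1foo and 3.51 AE4 peaks per 100 kb, against 6.71 and 3.06 over all protein-coding genes. Counted once each there were 176 H1foo and 69 AE4 peaks, and all but 5 and 3 of them lay at no protein-coding gene outside the set. The H1foo share of covered sequence was highest at Tcf7 (33.4% of the gene and its window), Sfrp5 (32.0%) and Wnt8a (29.0%), where AE4 peaks covered 11.5%, 0% and 3.87%. Of the distinct peaks, 89.2% of H1foo and 91.3% of AE4 lay at least in part inside a Wnt gene and the others in the 2 kb beside it, against 93.2% and 94.3% over all genes.

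Among ligands, Wnt5b on chromosome 6 (119432531 to 119544824, 112 kb), a ligand that acts mainly without β-catenin, had 16 H1foo and 6 AE4 peaks. Its peak at 119437725 to 119439873, 2149 bp wide, had the highest H1foo score of any Wnt gene, 360.1, rank 985 in the list. The 3 AE4 peaks toward the 5′ end of Wnt5b met no H1foo peak, and the 3 toward the 3′ end each overlapped one. Wnt3, whose product is needed to form the primitive streak, and Wnt9b, a ligand of kidney and palate development, are neighbours on chromosome 11 whose spans overlap by 1.1 kb. Each had 13 H1foo and 4 AE4 peaks, and 2 of the H1foo peaks lay in both windows. The other neighbouring pairs shared none: Wnt6 and Wnt10a had 5 and 4 H1foo peaks, Wnt3a and Wnt9a 6 and 4, and Wnt10b and Wnt1 2 and 2. Wnt10b, a ligand that favours bone over fat, held a single strong H1foo peak of score 159.5 at 98772189 to 98773438 of chromosome 15, and Wnt6 one of 151.8.

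The remaining ligands had at most 5 H1foo peaks, some of them in short genes. Wnt11 had 5 H1foo peaks and 1 AE4 peak, Wnt10a and Wnt8a 4 and 1 each, and Wnt7b 3 and 1. Per 100 kb of gene and window these were 41.1 H1foo peaks at Wnt8a, more than at any other of the 46 genes, 24.8 at Wnt10a, 21.1 at Wnt11 and 5.95 at Wnt7b, where the long Wnt5b had 13.8. Wnt9a had 4 H1foo peaks, Wnt1 and Wnt2b 2 each, all without AE4. Wnt4, a ligand of female gonad and kidney development, was the only ligand with more AE4 than H1foo peaks, 1 H1foo peak of score 50.8 and 3 AE4 peaks up to 75.1. Wnt2, Wnt5a, Wnt7a, Wnt8b and Wnt16 had no peak of either antibody.

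Among receptors, the co-receptor Lrp5 on chromosome 19 (3584825 to 3686585, 102 kb) had 18 H1foo and 9 AE4 peaks, and none of the 18 overlapped any of the 9. Lrp6, the related co-receptor, is longer (120 kb) and had 4 H1foo and 2 AE4 peaks, of which 1 pair overlapped; its strongest H1foo peak scored 200.9. The Fzd genes, most of them short, had at most 2 peaks. Fzd4 and Fzd10 had 2 H1foo peaks each, and Fzd2, Fzd3, Fzd5 and Fzd7 1 each, all without AE4. Fzd6 and Fzd9 had 1 peak of each antibody. Fzd1 and Fzd8 had none. At Fzd5 the peak scored 112.9 and lay outside the annotated gene, upstream of its start.

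Among the short receptor genes with H1foo alone, the peaks of Fzd10, Fzd7 and Fzd2 lay inside the gene. Fzd4 had 1 peak inside and 1 outside, and the only peak of Fzd5 lay outside. Over all genes, 93.2% of H1foo peaks lay at least in part inside a gene. Fzd10 on chromosome 5 (128601106 to 128604093) had peaks at 128601327 to 128602124 and 128602224 to 128602833, with scores of 95.2 and 73.3. Fzd4 on chromosome 7 (89404366 to 89410110) had one inside at 89406957 to 89407546, of score 88.3, and one just past its end at 89410175 to 89410651, of score 69.6. The single peak of Fzd7 lay at 59484287 to 59485179 of chromosome 1 (score 85.1) and that of Fzd2 at 102605393 to 102605897 of chromosome 11 (score 63.7). By covered length, H1foo peaks took up 20.1% of Fzd10 with its window, 10.9% of Fzd4 and 10.1% of Fzd7.

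The antagonist genes held 15 H1foo and 3 AE4 peaks, with medians of 2.0 and 0.0, against 1.0 and 0.0 over all genes. Pooled, this was 6.27 H1foo and 1.25 AE4 peaks per 100 kb, against 6.71 and 3.06. Relative to the density in the surrounding 1 Mb, the ratios were 2.04 for H1foo and 0.728 for AE4, against 1.14 and 1.12 over all genes. Sfrp1 had 4 H1foo and 2 AE4 peaks, and Dkk3, a divergent Dkk, 4 and 1. Sfrp5 and Dkk4, both under 5 kb, had 3 H1foo peaks each, up to scores of 130.8 and 120.4, and no AE4 peak. Sfrp4 had 1 H1foo peak. Sfrp2, Dkk1 and Dkk2 had no peak.

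Among the intracellular genes, Tcf7 on chromosome 11 (52246527 to 52283383, 36.9 kb) had 12 H1foo and 10 AE4 peaks. Its H1foo peaks included scores of 345.1 (52265061 to 52266912), 342.6 and 259.2, which rank 1112, 1138 and 2548 in the list, and its highest AE4 score was 134.8. Lef1 had 11 H1foo peaks, none above a score of 75.7, and 5 AE4 peaks, and no pair overlapped. Axin2, a scaffold of the destruction complex and a target of the pathway, had 10 and 3, and Axin1, the constitutive scaffold, 7 and 5. Tcf7l2 had 5 and 2 over 192 kb, Tcf7l1, a repressor in stem cells, 5 and 1 over 163 kb. Ctnnb1, β-catenin, had 1 H1foo peak (score 52.2) and 2 AE4 peaks and was, with Wnt4, the only Wnt gene with more AE4 than H1foo peaks.

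Most of the genes without peaks lay in regions with few peaks. Of the 10 genes without peaks, 8 stood in regions with fewer than 1 H1foo peak per 100 kb in the surrounding 1 Mb, such as Fzd1 (0), Wnt5a (0.103), Dkk2 (0.111) and Wnt2 (0.211). The share of all genes in such regions was not worked out, so the count describes these 10 genes only. Sfrp4, which had an H1foo peak, also stood in such a region, with 0.71 per 100 kb around it. The nearest H1foo peak was 645 kb from Fzd1, 448 kb from Dkk2, 245 kb from Wnt7a and 177 kb from Wnt2. Others of these genes had peaks closer by. The nearest H1foo and AE4 peaks were 10.6 kb and 9.06 kb from Fzd8, and 29.4 kb and 13.4 kb from Wnt16. Wnt8b and Sfrp2 did not stand in such sparse regions. They had 4.92 and 4.66 H1foo peaks per 100 kb around them and the nearest H1foo peak at 5.57 kb and 15.1 kb.

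Other genes stood above or below their surroundings. H1foo peaks per 100 kb were 27.1 at Axin2 against 4.36 around it, 29.4 at Tcf7 against 8.34, 13.8 at Wnt5b against 4.19, and 8.43 at Dkk3 against 1.68. The short Wnt8a reached 41.1 against 10 and Fzd4 20.5 against 1.51, values that rest on 4 and 2 peaks. The densities were 3.87 at Wnt4 against 19.8, 3.21 at Ctnnb1 against 12.6, 3.21 at Lrp6 against 11.2 and 3 at Tcf7l1 against 7.92. Summed over the 46 genes, 173 H1foo peaks were centred in the windows where the surrounding density gives 148, a ratio of 1.17, and the ratio over all genes was 1.14. For AE4 it was 68 against 65.5, a ratio of 1.04, and 1.12 over all genes.

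Although every Wnt gene with an AE4 peak also had an H1foo peak, the peaks themselves mostly lay at different places. Of the 176 H1foo peaks at Wnt genes, 19 (10.8%) overlapped an AE4 peak, against 25.6% of the H1foo peaks at all protein-coding genes. Of the 69 AE4 peaks, 19 (27.5%) overlapped an H1foo peak, against 56.8%. The overlapping peaks lay at 9 genes, with 5 H1foo peaks at Tcf7, 3 each at Wnt5b and Wnt9b, 2 each at Axin1 and Axin2, and 1 each at Lrp6, Tcf7l2, Wnt11 and Wnt3. Some of the overlapping peaks had nearly the same borders. At Tcf7l2 the H1foo peak spanned 55770625 to 55771082 of chromosome 19 (score 120.7, rank 17332) and the AE4 peak 55770624 to 55771182 (score 123, rank 3444). At Lrp6 they spanned 134459096 to 134459559 (score 70.9) and 134459095 to 134459726 (score 93.0) of chromosome 6. At Wnt9b the AE4 peak at 103765828 to 103766651 of chromosome 11 (score 130.1, rank 2884) met an H1foo peak at 103765856 to 103766555 of score 84.8 (rank 36463). At Tcf7 the H1foo peak of score 345.1 (rank 1112) covered AE4 peaks of 134.8 (rank 2561) and, in part, 52.2 (rank 41457). No peak at any Fzd, Sfrp or Dkk gene overlapped the other list. Without Tcf7 the shares were 8.54% for H1foo and 22.0% for AE4.

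The peaks at Wnt genes had median scores of 71.6 for H1foo and 58.3 for AE4, against 75 and 65.1 at all genes. Peaks at other genes in the same decile of score and the same decile of surrounding peaks of the other list overlapped in 20.5% of cases for H1foo and 47.9% for AE4, both above the shares at Wnt genes. These classes were chosen after the data were seen. With lists of equal length, 17.9% of H1foo and 21.7% of AE4 peaks at Wnt genes overlapped, against 36.0% and 42.5% at all genes. Among peaks that did not overlap the other list, the median distance to its nearest peak was 6.09 kb for H1foo peaks at Wnt genes and 2.73 kb for AE4 peaks, against 3.95 kb and 2.34 kb at all genes. Peaks along a gene are not independent, and no test of the difference was made.

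**Figure D4:**
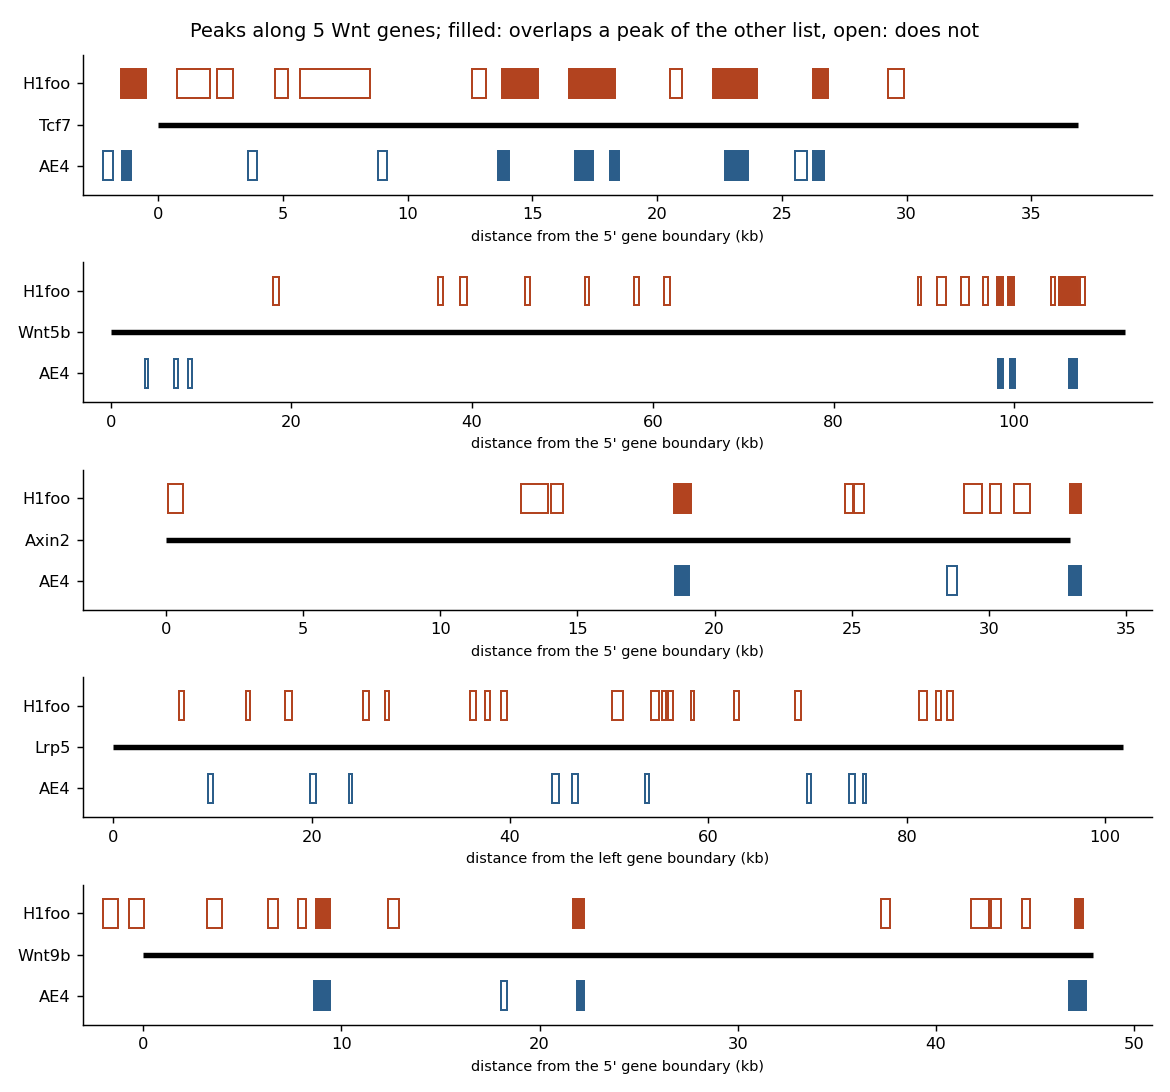
H1foo peaks (upper row) and AE4 peaks (lower row) along 5 Wnt genes (black line), in kb from the gene's 5′ end, or from its left end for Lrp5. Filled boxes overlap a peak of the other list and open boxes do not: Tcf7 has 5 filled H1foo boxes of 12, and Lrp5 none of 18.

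**Figure D5:**
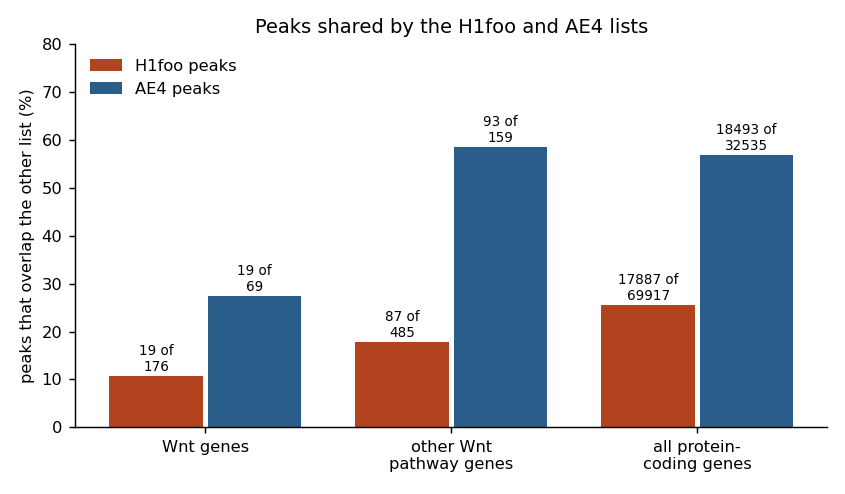
Percent of H1foo and AE4 peaks that overlap a peak of the other list, at Wnt genes, at other Wnt pathway genes and at all protein-coding genes; numbers over the bars are peaks. At Wnt genes 19 of 176 H1foo peaks and 19 of 69 AE4 peaks overlap.

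Profiles were taken around the 25 starts of Wnt genes with a single start among the start windows. At Wnt6 and Wnt9b, for example, that start lies well inside the gene span, so the upstream bins there fall inside the gene. H1foo peaks were centred at 2.67 per 100 kb from 2 to 0.5 kb upstream, 4.0 within 0.5 kb of the start and 13.3 from 0.5 to 2 kb downstream. Over the 14731 such starts of all genes these densities were 8.03, 12.9 and 10.8. AE4 peaks numbered 2.67, 0 and 0 per 100 kb in the same bins of the Wnt genes, against 2.50, 2.42 and 3.26 over all genes. The Wnt values rest on 1, 1 and 5 H1foo peaks and 1, 0 and 0 AE4 peaks.

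A further 61 genes of the pathway were listed from general knowledge: processing and release of ligands, R-spondins and their receptors, polarity proteins, kinases and nuclear cofactors. Of these, 48 (78.7%) had an H1foo peak and 47 (77.0%) an AE4 peak, and their length and density classes had 70.2% and 59.6%. The 46 Wnt genes had 78.3% for H1foo, against 78.7% at these genes, and 52.2% for AE4, against 77.0%. The median length was 24.8 kb for the 46 Wnt genes and 51.2 kb for these genes. The genes with the most H1foo peaks were Ctbp2, a transcriptional corepressor (33 H1foo and 5 AE4 peaks), the receptor-like Ptk7 (32 and 9), the Wnt5a receptor Ror2 (29 and 6), the polarity cadherin Celsr1 (27 and 4) and the casein kinase gene Csnk1e (23 and 9). AE4 without H1foo was found at 7 genes, Csnk1a1, Csnk1g1, Csnk1g3, Ror1, Tle1, Tnks2 and Wls, where the 46 Wnt genes had none. These 7 were 11.5% of the 61, against 3.88% of all genes and 4.83% in their length and density classes. Neither was found at Apcdd1, Porcn, Prickle2, Rspo2, Rspo3 and Sostdc1 (9.84%), against 36.7% of all genes and 24.9% in the classes. At these 61 genes 17.9% of H1foo peaks and 58.5% of AE4 peaks overlapped the other list, against 25.6% and 56.8% at all protein-coding genes. Under 10 kb, 7 of 8 of the further genes (87.5%) had an H1foo peak, 4 (50%) an AE4 peak and 3 (37.5%) H1foo alone. The Wnt genes of that length had 75%, 18.8% and 56.2%, and all genes 43.2%, 27.3% and 17.8%.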

How the data were processed

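The submitters' processing notes name Bowtie 1.1.2 and the build mm10, and per the file headers the peaks are from MACS (no version stated). For each antibody the authors deposited a single list, with a score per peak whose scale is not named. The sources used here do not say how libraries were pooled or what served as control. Depth is unknown.

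Starts were converted to positions counted from 1. Peaks on the 21 assembled chromosomes were kept, 97795 of 97825 for H1foo and 47449 of 47493 for AE4. Gene spans were those of RefSeq on GRCm38.p6 (coordinates of mm10), without 126 protein-coding genes on scaffolds or the mitochondrial chromosome. Strand and start sites came from the RefSeq start windows, which covered 31 of the 46 genes; sequence of the other 15 is not shown. Surrounding density counted peak centres in 1 Mb around a gene without the gene and its window. The class share is the mean, over the Wnt genes, of the share among other genes of the same length tertile and density decile (at least 198 genes a class). Overlaps were computed in Python 3.11.15 with numpy 2.4.6 and pandas 2.3.3 and checked on simulated intervals. No test was made, since there are no replicate values. The genes, lists and settings were chosen with earlier results of these data known. Genes were named by rule: in each role those with the most peaks or the highest scores, the longest without peaks, and those with a peak at a start; the other genes are listed by count.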

Additional observations from a re-analysis of the deposited data

How the results depend on the processing

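Windows of 0, 1, 5 and 10 kb, peak centres or at least 50% of the peak in the window, peaks cut to 200 bp, and leaving out chromosome 8 or the sex chromosomes gave 73.9% to 80.4% of Wnt genes with an H1foo peak and 47.8% to 63.0% with an AE4 peak, against 56.1% to 66.2% and 42.7% to 57.1% of all genes. With a window of 10 kb 1 Wnt gene had AE4 alone. The H1foo margin over the comparison class lay between 11.2 and 29.1 points over all 19 alternatives, some of which built the class in another way. The lowest, 11.2 points, came with classes of gene length and surrounding peaks in place of gene density. The AE4 margin lay between -3.34 and 10.5 points and was positive in all of them except with scores of 100 or more, where it was -3.34 points. That setting also reversed the margin for genes with both peaks, to -1.85 points. It left 43.5% of Wnt genes with an H1foo peak, against 32.8% of all genes. The shares with AE4 and with both were 8.7% each, below the 13.8% and 12.3% of all genes. There were then 2.34 H1foo and 0.254 AE4 peaks per 100 kb of Wnt genes. With the higher-scoring part of each list (score at or above the median), 30.4% of Wnt genes had an AE4 peak and 26.1% had both, below the 32.5% and 28.0% of all genes, and 19 (41.3%) had H1foo without AE4, against 16.4% of all genes. With lists of equal length there were 4.07 H1foo peaks per 100 kb, and 17.9% of H1foo peaks overlapped the AE4 list. These settings keep fewer peaks by construction. No paired analysis was possible because the lists hold no values per library, and leaving out a replicate could not be done for the same reason. The number of libraries and their unknown depth limit all counts.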
